A study of Homo sapiens with 18 samples.

Results

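The 9 genes described here mark cell lineages of the lung epithelium. They are 9 of the 58302 genes in the deposited expression tables and were followed in 3 lung cancer cell lines with and without depletion of the tyrosine kinase SYK. They were chosen by name, with earlier results of these data known. NKX2-1, FOXA1, FOXA2 and GATA6 are transcription factors of the lung and foregut endoderm, NAPSA is a product of alveolar cells, ELF3 and KLF5 are factors of differentiated and proliferating epithelium, and SOX2 and TP63 are factors of the airway and of its basal, squamous-forming cells. EBC-1 carries a MET amplification and is listed by the study as squamous cell lung cancer, and PC-9 and HCC827 carry an EGFR exon 19 deletion and are listed as lung adenocarcinoma. Each line was compared as cells with a stable lentiviral short hairpin RNA against SYK (shSYK) and cells with a negative control (nc), with 3 RNA-seq libraries in each of the 6 groups. A single hairpin was used, and no other treatment separated the groups. Nothing says that the 3 libraries of a group came from separate cultures, so the p-values measure the spread between these libraries, which may be technical.

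In the lung, NKX2-1 (also called TTF-1) is needed for alveolar cell identity and switches on surfactant genes and NAPSA, the aspartic protease napsin A that trims surfactant protein B. Pathologists use NKX2-1 and napsin A as marks of adenocarcinoma, and the p63 protein of TP63 together with basal keratins as marks of squamous carcinoma, where SOX2 and TP63 are often gained together. FOXA1 and FOXA2 open closed chromatin for other endodermal factors, among them NKX2-1 and GATA6.

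The 18 libraries held between 7920099 and 15729103 reads on genes. Replicates disagreed most in PC-9 nc, where the reads of libraries 1 and 2 gave a chi-square per degree of freedom of 38.7. The highest such value was 12.2 in EBC-1 and 6.41 in HCC827. The part of this spread in the PC-9 calls was not tested. SYK, the targeted gene, was at 15.2, 13.1 and 14.4 FPKM in the nc and 7.63, 7.25 and 7.41 FPKM in the shSYK libraries of EBC-1, and its mean fell to 52.3% of nc there, to 32.1% in PC-9 and to 32.9% in HCC827 (adjusted p = 0.000271, 0.00733 and 0.000197, and 0.0648 in PC-9 without shSYK library 1). FPKM is the number of reads scaled to gene length and to a library's denominator. Values of 1 gene were tested within a line with limma on log2(FPKM + 1) for genes with a mean of at least 1 FPKM, and a gene was called at a Benjamini-Hochberg adjusted p under 0.05 over all genes tested. An exact permutation test of 3 libraries against 3 cannot go below p = 0.1, so it shows only whether the groups overlap. Epithelial markers were high in every line, with 1137 to 4683 FPKM summed over EPCAM, KRT8, KRT18, KRT19 and CDH1. Their sum was 1197 to 1434 FPKM in nc and 1137 to 1192 FPKM in shSYK libraries of EBC-1. There CDH1, KRT18 and KRT19 were called lower (3 of 5), beside 21.6% of all genes tested. EPCAM (log2 change 0.23) and KRT8 (0.04) were not called. In HCC827 the sum was 3147 to 3519 FPKM in nc and 2591 to 3008 FPKM in shSYK libraries. CDH1 and KRT19 were called lower there (2 of 5), beside 20.7% of all genes tested. EPCAM (0.02), KRT18 (0.03) and KRT8 (-0.16) were not called. In PC-9 the sum was 2707 to 4683 and 3324 to 3744 FPKM, with none of the 5 called, beside 1.41% of all genes called lower. The share of reads on mitochondrial genes was 2.23% to 2.51% in nc and 1.89% to 1.93% in shSYK libraries of EBC-1. The part of either in the results was not tested. The summed levels of fibroblast, leukocyte, neuroendocrine and tuft, intestinal and hepatocyte markers stayed at or under 1.67 FPKM in all libraries, and those of the ciliated cell markers FOXJ1 and RSPH1 at or under 3.90 FPKM. The endothelial markers PECAM1, VWF and CDH5 summed to 15.0 to 17.1 FPKM in PC-9 nc and to 6.62 to 7.91 FPKM in PC-9 shSYK cells, against at most 0.235 FPKM in the other lines, and the part of this in the results was not tested.

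The promoter windows of SOX2 and KLF5 are shown because these genes had the largest fall among the tested members in HCC827 and the one called fall in PC-9, and because their windows overlap no annotated coding or untranslated base, although that of SOX2 overlaps an exon of a non-coding gene. The bases come from RefSeq (GRCh38.p14), on the + strand, from 5′ to 3′. The SOX2 window is chr3:181711675-181711923, and the KLF5 windows are chr13:73054726-73054975, before the first base of the gene in the tables, and chr13:73058755-73059004, before a second start in an intron of the gene.
SOX2: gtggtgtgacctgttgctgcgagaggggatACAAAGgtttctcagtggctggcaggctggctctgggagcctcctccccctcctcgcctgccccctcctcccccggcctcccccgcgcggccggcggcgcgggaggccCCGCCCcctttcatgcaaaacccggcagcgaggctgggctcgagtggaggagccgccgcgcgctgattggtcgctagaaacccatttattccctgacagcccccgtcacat
KLF5, first start: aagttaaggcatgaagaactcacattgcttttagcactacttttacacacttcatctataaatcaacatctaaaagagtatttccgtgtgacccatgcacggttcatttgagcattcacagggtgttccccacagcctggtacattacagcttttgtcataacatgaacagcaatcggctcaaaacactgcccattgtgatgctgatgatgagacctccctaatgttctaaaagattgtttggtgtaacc
KLF5, second start: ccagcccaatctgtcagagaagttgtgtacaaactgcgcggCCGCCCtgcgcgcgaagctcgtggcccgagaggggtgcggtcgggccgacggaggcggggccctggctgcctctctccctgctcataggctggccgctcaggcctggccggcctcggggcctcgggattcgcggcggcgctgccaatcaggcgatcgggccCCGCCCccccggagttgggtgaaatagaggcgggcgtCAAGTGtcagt
Capitals mark matches, on either strand, to the words ACAAAG of SOX factors, GGGCGG (here as CCGCCC) of SP and KLF factors and CAAGTG, the core word of NKX2-1. The 250 bases before a start held GGGCGG in 42.6% of all 35116 RefSeq promoter windows, ACAAAG in 13.7% and CAAGTG in 9.5%. Of the 9 genes, 8 had a window in the table, with 11 windows among them, and FOXA2 had none. The shares count windows, whereas a gene is counted here if any of its windows held the word, so they are unlike measures. GGGCGG occurred in the windows of FOXA1, KLF5, NKX2-1 and SOX2, and CAAGTG in those of ELF3, FOXA1, KLF5, NKX2-1 and TP63. The forkhead word TGTTTAC (2.98% of windows) and the GATA word AGATAA (9.17%) occurred only in NKX2-1 among the 9 genes, and the ETS word GGAAGT (19.5%) in none of them. These matches are a description of the letters and were not tested.

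The 3 lines differed widely in which of the 9 genes they expressed. In HCC827 nc cells the order from the highest mean was NAPSA (87.1 FPKM), ELF3 (62.9), NKX2-1 (54.1), FOXA1 (23.8), KLF5 (23.1), SOX2 (22.3), GATA6 (1.40), FOXA2 (0.985) and TP63 (0.258). The libraries of ELF3 and NKX2-1 overlapped in that order, as did those of FOXA1, KLF5 and SOX2, and the other neighbours did not. In EBC-1 nc cells ELF3 led with 32.1 FPKM, followed by FOXA1 (24.6), FOXA2 (21.5), GATA6 (13.4), SOX2 (9.85), KLF5 (8.10), NAPSA (0.822), NKX2-1 (0.0741) and TP63 (0.0211) and no 2 neighbours in this order overlapped. In PC-9 nc cells ELF3 (54.1 FPKM), KLF5 (23.4), FOXA1 (12.1), GATA6 (5.33) and NKX2-1 (1.93) were set apart from each other, and FOXA2 (0.343), NAPSA (0.336), TP63 (0.0722) and SOX2 (0.0355) overlapped along the order.

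Between the nc cells of 2 lines, the share of all 12702 genes tested that differed was 70.3% for EBC-1 against PC-9, 69.4% for EBC-1 against HCC827 and 64.6% for PC-9 against HCC827. Of the 8 members tested (TP63 was too low), 8, 7 and 6 differed. The members that did not pass were FOXA1 between EBC-1 and HCC827 (log2 difference 0.05, 95% interval -0.19 to 0.29, adjusted p = 0.698), and ELF3 (-0.23, -0.60 to 0.14, adjusted p = 0.243) and KLF5 (0.02, -0.26 to 0.30, adjusted p = 0.885) between PC-9 and HCC827. Without PC-9 nc library 1, the ELF3 difference passed with an adjusted p of 0.0272. At equal sums FOXA1 differed between EBC-1 and HCC827 as well (0.37, adjusted p = 0.000761). NKX2-1 was 28.0-fold higher in HCC827 than in PC-9, NAPSA 106-fold higher in HCC827 than in EBC-1, and SOX2 at least 185-fold higher in HCC827 than in PC-9 when PC-9 was set to a floor of 3 reads per library. FOXA2 went the other way and was 21.9-fold higher in EBC-1 than in HCC827. A line and any batch in which it was grown or sequenced cannot be told apart here.

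The histology listed for EBC-1 was checked against the genes that define it. TP63 had 0 to 3 reads in each EBC-1 nc library, and KRT5, KRT6A, KRT6B, KRT14, DSG3, DSC3, TRIM29, CALML3, CLCA2 and DLX5, 10 of 24 squamous and basal genes listed, did not exceed 3 reads there. Another 9 of the list had a mean of at least 1 FPKM, among them S100A2, PERP, JAG2 and SERPINB5, and SOX2 was present. The basal keratins and TP63 that define squamous carcinoma were thus at or near 0 in EBC-1, which is called by its name in what follows. HCC827 expressed the adenocarcinoma pair NKX2-1 and NAPSA, whereas PC-9, listed with the same histology, held NKX2-1 at 1.72 to 2.09 FPKM and NAPSA at 0.0804 to 0.625 FPKM in nc cells. KRT5, a basal keratin, was at 17.6 to 23.5 FPKM in PC-9 nc cells and at 0 reads in the other lines.

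**Figure D1:**
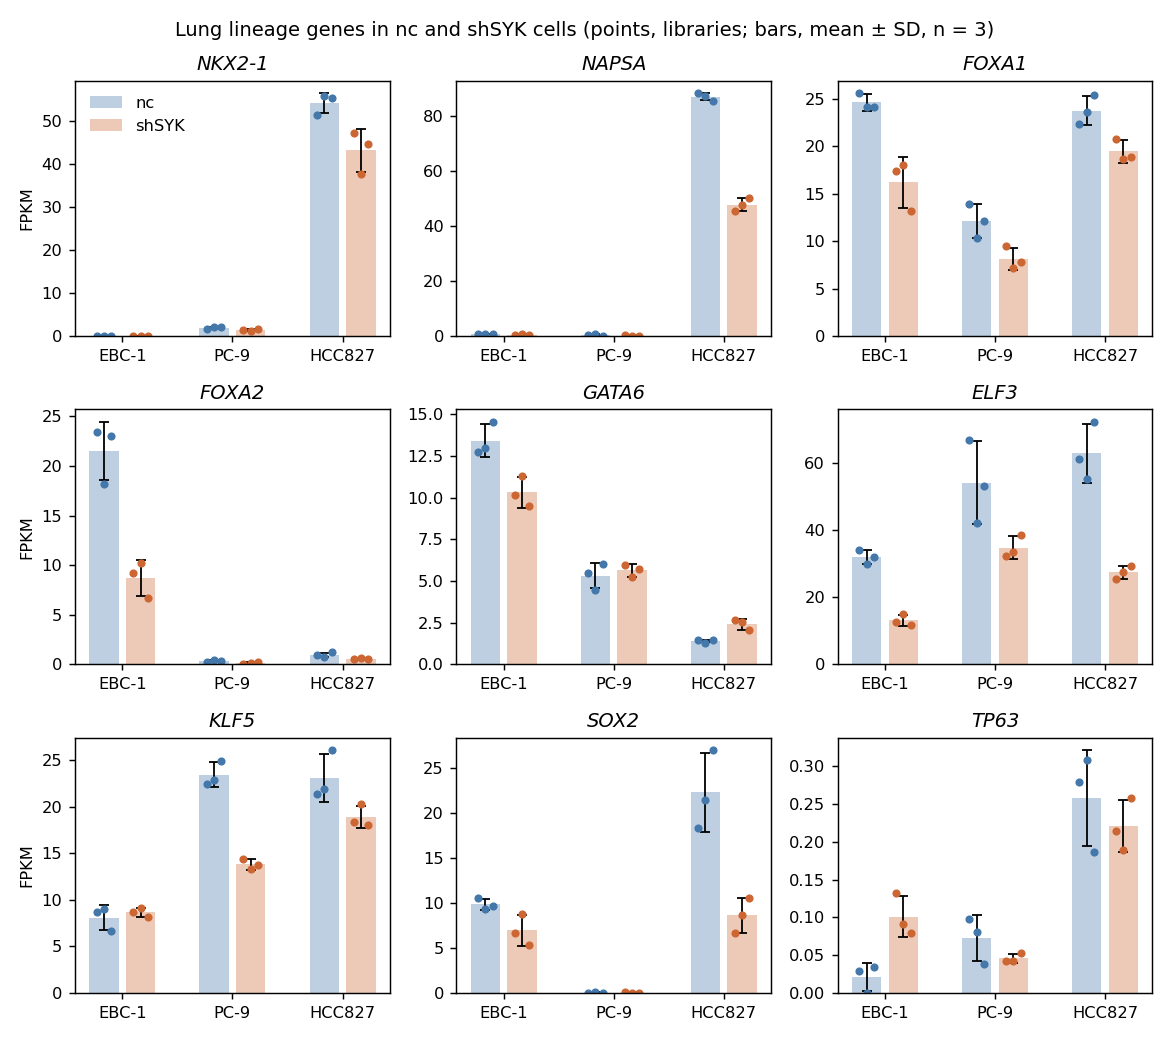
FPKM of the 9 genes in the 6 groups, with a point for each library and bars for the mean ± SD (n = 3), each panel on its own linear axis from 0. NKX2-1 and NAPSA stand above 30 FPKM in HCC827 alone, FOXA2 above 5 FPKM in EBC-1 alone, and TP63 stays under 0.31 FPKM in all 18 libraries.

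NKX2-1 (ENSG00000136352, chr14:36516392-36521149, - strand, hg38) was an HCC827 gene. Its 3 nc libraries there held 51.4, 55.6 and 55.2 FPKM and its shSYK libraries 47.2, 37.5 and 44.5 FPKM. Every shSYK library lay below every nc library, and the mean was 79.7% of nc. The change of -0.33 ± 0.09 (log2 ± SE, adjusted p = 0.0226) was called, but not after the libraries were rescaled to equal sums (adjusted p = 0.0842), after quantile normalization (0.0596), without the filter on low genes (0.0688), or without nc library 2 (0.062) or 3 (0.0607). In PC-9 the nc libraries held 1.72, 1.98 and 2.09 FPKM and the shSYK libraries 1.36, 1.18 and 1.71 FPKM, with the highest shSYK library just under the lowest nc library and no call (-0.28 ± 0.13, adjusted p = 0.338). NKX2-1 had 2 to 4 reads in EBC-1 nc and 0 to 1 read in EBC-1 shSYK libraries, too few for a fold.

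NAPSA (ENSG00000131400, chr19:50358477-50365830, - strand) encodes napsin A. In HCC827 its level was 88.3, 87.2 and 85.7 FPKM in nc and 45.4, 47.8 and 50.2 FPKM in shSYK cells. The groups were far apart, with a mean of 54.9% of nc, and the fall of -0.85 ± 0.05 (adjusted p = 0.000121) was called under all 15 alternatives, with adjusted p between 3.49e-08 and 0.0015. NAPSA lay under the filter in the other lines. It was at 0.770, 0.796 and 0.900 FPKM in EBC-1 nc and 0.513, 0.621 and 0.246 FPKM in shSYK cells, on 36 to 38 and 12 to 30 reads, and did not pass in a fit without the filter (-0.33 ± 0.13, adjusted p = 0.163). In PC-9 it stood on 3 to 26 reads in nc and 1 to 9 in shSYK libraries, which overlapped. NAPSB, a near copy next to NAPSA, reached at most 1.03 FPKM in any library shown here, and the counting of reads that fit both genes is not given in the sources used here.

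FOXA1 (ENSG00000129514, chr14:37589984-37596059, - strand), the forkhead pioneer factor that lies 1068834 bases from NKX2-1, had all its shSYK libraries under its nc libraries in all 3 lines. In EBC-1 it was at 25.6, 24.1 and 24.1 FPKM in nc and 17.4, 18.03 and 13.1 FPKM in shSYK cells. The fall to 65.7% of nc was called (-0.59 ± 0.12, adjusted p = 0.00582). In HCC827 the levels were 22.3, 23.6 and 25.4 FPKM in nc and 20.8, 18.7 and 18.9 FPKM in shSYK cells. This smaller fall to 81.9% was also called (-0.27 ± 0.07, adjusted p = 0.0173), but not at equal sums (adjusted p = 0.0572), in a fit of all 18 libraries (0.0995) or without shSYK library 2 (0.0616) or 3 (0.0599). PC-9 held 13.9, 10.3 and 12.1 FPKM in nc and 9.46, 7.22 and 7.77 FPKM in shSYK cells. That change of -0.51 ± 0.14 was not called (adjusted p = 0.132), and it passed at equal sums (0.0489), with all 18 libraries (0.0104) and without nc library 2 (0.0481).

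FOXA2 (ENSG00000125798, chr20:22581005-22585455, - strand), the related factor of foregut endoderm, was confined to EBC-1 at levels above 5 FPKM. Its nc libraries there held 23.4, 18.1 and 23.1 FPKM and its shSYK libraries 9.20, 10.2 and 6.72 FPKM. All 3 shSYK libraries were under all 3 nc libraries, at a mean of 40.5% of nc. The fall of -1.22 ± 0.15 (adjusted p = 0.00103) was called under all 15 alternatives, with adjusted p between 5.57e-06 and 0.00813. HCC827 had 18 to 34 reads per nc library (0.785 to 1.21 FPKM) and 15 to 18 per shSYK library (0.528 to 0.650 FPKM), under the filter and not called without it (adjusted p = 0.139). PC-9 had 5 to 13 and 1 to 7 reads, which overlapped.

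GATA6 (ENSG00000141448, chr18:22169443-22202528, + strand), a zinc finger factor of endoderm and of the developing alveolus, was the one member with called changes in both directions. In EBC-1 it was at 12.8, 13.0 and 14.6 FPKM in nc and at 10.1, 11.3 and 9.52 FPKM in shSYK cells, a called fall to 76.9% of nc (-0.35 ± 0.09, adjusted p = 0.0142) that missed the threshold without nc library 3 (adjusted p = 0.052). In HCC827 it was at 1.44, 1.32 and 1.46 FPKM in nc and at 2.64, 2.53 and 2.04 FPKM in shSYK cells. There each shSYK library was above each nc library, at a mean of 171% of nc, on 41 to 62 reads in nc and 88 to 106 in shSYK libraries. The rise of 0.50 ± 0.10 (adjusted p = 0.00686) was called under all 14 alternatives, with adjusted p between 0.00112 and 0.03. PC-9 levels of 5.49, 4.49 and 6.01 FPKM in nc and 5.98, 5.22 and 5.72 FPKM in shSYK cells overlapped (0.07 ± 0.12, adjusted p = 0.835), with an interval of -0.20 to 0.35.

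ELF3 (ENSG00000163435, chr1:202007945-202017188, + strand), an ETS factor of differentiated epithelium, was the highest member in EBC-1 and PC-9 nc cells. In EBC-1 the nc libraries held 34.2, 30.03 and 32.0 FPKM and the shSYK libraries 12.7, 15.0 and 11.9 FPKM. In HCC827 the nc libraries held 61.2, 55.2 and 72.3 FPKM and the shSYK libraries 25.5, 27.5 and 29.4 FPKM. These falls to 41.2% and 43.7% of nc were called (-1.22 ± 0.10, adjusted p = 0.000182, and -1.16 ± 0.10, adjusted p = 0.000347) and stayed called under all 15 alternatives in both lines. PC-9 held 66.8, 42.2 and 53.2 FPKM in nc and 32.4, 33.5 and 38.6 FPKM in shSYK cells. Here too the groups did not overlap and the mean was 64.4% of nc, but the nc libraries spread widely and the change of -0.60 ± 0.17 was not called (adjusted p = 0.151). It passed at equal sums (0.0275), after quantile normalization (0.0164), with all 18 libraries (0.0101), with limma-voom on the recovered reads (0.0297) and without nc library 2 (0.0289). PC-9 nc library 1 had the highest FPKM sum of its line (342216) and nc library 2 the lowest (274907), and among the nc libraries ELF3 was highest and lowest in the same 2. The part of these sums in the ELF3 values was not tested.

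KLF5 (ENSG00000102554, chr13:73054976-73077542, + strand), a Krüppel-like factor of proliferating epithelium and of the developing lung, was the one member called in PC-9. Its levels there were 22.5, 22.9 and 25.0 FPKM in nc and 14.4, 13.3 and 13.7 FPKM in shSYK cells, with a narrow spread in both groups and a mean of 58.9% of nc. The fall of -0.72 ± 0.10 had an adjusted p of 0.0161, which rose to between 0.109 and 0.136 without nc library 3 or any 1 of the 3 shSYK libraries. In HCC827 the levels were 21.4, 21.9 and 26.1 FPKM in nc and 18.4, 20.3 and 18.04 FPKM in shSYK cells. That fall to 81.8% of nc was at the edge of the threshold (-0.27 ± 0.09, adjusted p = 0.04), and 10 of 15 alternatives put it above, with adjusted p up to 0.119. In EBC-1 the nc libraries (8.70, 8.99 and 6.60 FPKM) and the shSYK libraries (8.68, 9.11 and 8.12 FPKM) overlapped (0.09 ± 0.11, interval -0.17 to 0.36, adjusted p = 0.53).

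SOX2 (ENSG00000181449, chr3:181711924-181714436, + strand), whose promoter is printed above, is a factor of the conducting airway and of stem-like cells. HCC827 had 18.4, 21.5 and 27.0 FPKM in nc and 6.65, 8.72 and 10.5 FPKM in shSYK cells, the largest log2(FPKM + 1) change among the tested members of any line. The mean was 38.7% of nc, and the fall of -1.28 ± 0.17 (adjusted p = 0.00171) was called under all 15 alternatives, with adjusted p between 2.3e-06 and 0.0118. In EBC-1 the levels were 10.5, 9.32 and 9.72 FPKM in nc and 6.68, 8.81 and 5.38 FPKM in shSYK cells. Its shSYK library 2 lay close under the nc libraries, and the fall to 70.6% of nc (-0.47 ± 0.15, adjusted p = 0.0352) missed the threshold under 7 of 15 alternatives, with adjusted p up to 0.112. These were equal sums, no filter and the removal of any nc library or of shSYK library 1 or 3. In PC-9 no library held more than 3 SOX2 reads.

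TP63 (ENSG00000073282, chr3:189631416-189897279, + strand), 7916979 bases from SOX2 on the same chromosome arm, encodes the p63 factors of basal cells and passed the filter in no line. EBC-1 nc libraries held 0.0292, 0 and 0.0341 FPKM, and EBC-1 shSYK libraries 0.132, 0.0917 and 0.0789 FPKM. These are 0 to 3 reads against 8 to 16, with the shSYK libraries above, and an adjusted p of 0.0892 without the filter. TP63 had 3 to 7 reads per nc library and 4 per shSYK library in PC-9, and 15 to 27 and 15 to 21 in those of HCC827, overlapping in both lines.

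Counted by line, 5 of the 6 members tested in EBC-1 were called lower and none higher, beside 21.6% of all 12430 genes tested called lower and 23.1% higher. In PC-9 1 of 5 was called lower and none higher, beside 1.41% lower and 0.678% higher of 12089 genes. In HCC827 6 of 7 were called lower and 1 higher, beside 20.7% and 17.2% of 11999 genes. All shSYK libraries lay under all nc libraries for 5 of 6 tested members in EBC-1, 4 of 5 in PC-9 and 6 of 7 in HCC827, beside 27.2%, 12.3% and 27.6% of all genes tested. The median log2 change of the tested members was -0.53 for EBC-1, -0.51 for PC-9 and -0.33 for HCC827, beside all-gene medians of 0.00904, 0.00876 and -0.00534. Because the members were chosen with earlier results of these data known, these counts and medians describe them and do not test them as a set. The FPKM sums of EBC-1 were 267243 to 280477 in nc and 247177 to 253541 in shSYK libraries. With all libraries rescaled to equal sums, the all-gene median of EBC-1 was 0.12, and ELF3 (-1.11), FOXA2 (-1.11), FOXA1 (-0.47) and GATA6 (-0.23) were still called lower, while SOX2 was not (-0.36, adjusted p = 0.0732). In HCC827 SOX2, ELF3 and NAPSA stayed called lower and GATA6 higher, and NKX2-1 (adjusted p = 0.0842), FOXA1 (0.0572) and KLF5 (0.0522) were lost, which left 3 of 7 members lower. Over all genes that scaling moved the split from 2876 higher and 2686 lower to 4023 and 1893 in EBC-1, and from 2066 and 2488 to 2497 and 1888 in HCC827.

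**Figure D2:**
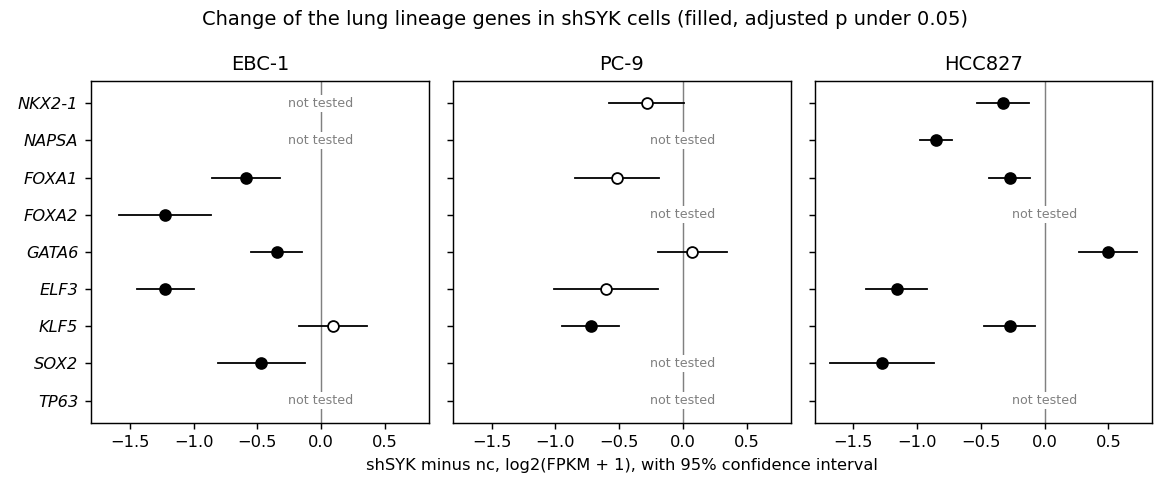
Change of each member, shSYK minus nc on log2(FPKM + 1), with its 95% confidence interval, filled where the adjusted p is under 0.05. ELF3 lies near -1.2 in EBC-1 and HCC827, GATA6 lies left of 0 in EBC-1 and right of it in HCC827, and members under a mean of 1 FPKM were not tested.

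Whether the response differed between lines was tested in a fit of all 18 libraries, over 12672 genes. The share of genes whose response differed was 19.8% for EBC-1 against PC-9, 21.8% for EBC-1 against HCC827 and 7.5% for PC-9 against HCC827. Among the 8 members tested, 4, 4 and 1 differed, and the 3 pairs share their libraries. FOXA2, NAPSA, NKX2-1 and SOX2 were tested here although each was near 0 in at least 1 line. KLF5 separated EBC-1 from PC-9, with a difference of 0.82 ± 0.14 (adjusted p = 0.000879) that passed under all 19 alternatives. GATA6 separated EBC-1 from HCC827, with -0.85 ± 0.14 (adjusted p = 0.000387), again under all 19. SOX2 fell more in HCC827 than in EBC-1 (0.81 ± 0.23, adjusted p = 0.018), which missed the threshold with a pseudocount of 0.1 (0.138) and without HCC827 nc library 3 (0.0505) or shSYK library 1 (0.051). ELF3 did not differ by test between EBC-1 and HCC827 (-0.06, interval -0.48 to 0.36, adjusted p = 0.86), and its difference between EBC-1 and PC-9 (-0.62 ± 0.20, adjusted p = 0.0372) missed the threshold under 10 of 19 alternatives, up to an adjusted p of 0.0948.

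The other called differences involved a line in which the gene was near 0, or were narrow. FOXA2 differed between EBC-1 and both other lines (-0.995 ± 0.19, adjusted p = 0.00184, for PC-9, and -0.90 ± 0.19, adjusted p = 0.00307, for HCC827). With a pseudocount of 0.1 neither difference passed (adjusted p = 0.574 and 0.297). The FOXA2 mean in shSYK cells was 40.5%, 43.5% and 59.4% of nc in EBC-1, PC-9 and HCC827. The PC-9 and HCC827 percentages rest on the few reads given above, which overlapped in PC-9 and gave no call in HCC827. NAPSA gave 0.53 ± 0.17 for EBC-1 against HCC827 (adjusted p = 0.0409), with means of 56.0% and 54.9% of nc. That call was lost under 15 of 19 alternatives, and with a pseudocount of 0.1 the difference was 0.08 (adjusted p = 0.939). SOX2 gave 1.27 ± 0.23 for PC-9 against HCC827 (adjusted p = 0.00206), where PC-9 had at most 3 reads per library, and 0.0632 was its adjusted p with that pseudocount. GATA6 also differed between EBC-1 and PC-9 (-0.42 ± 0.14, adjusted p = 0.0407), a call that 11 of 19 alternatives put above the threshold, with adjusted p up to 0.117.

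**Figure D3:**
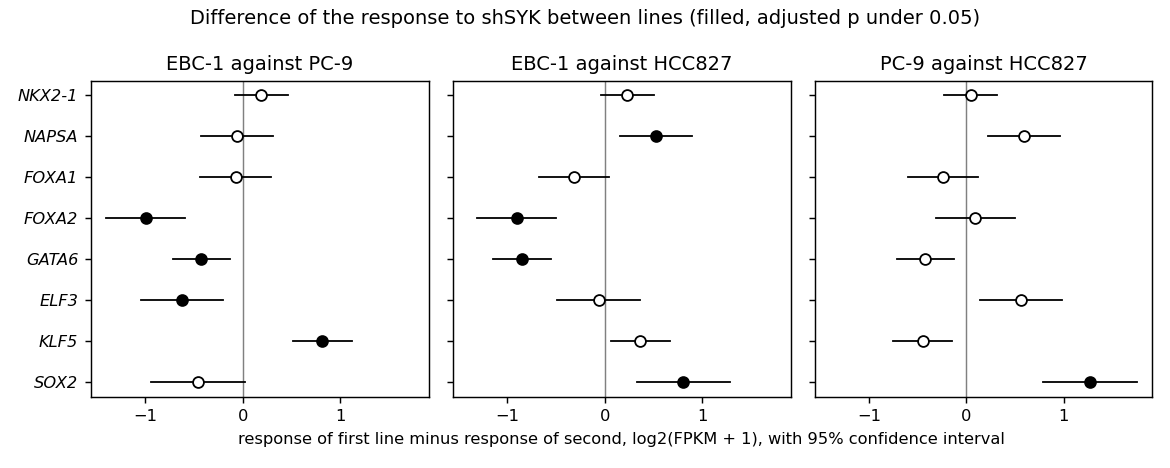
Difference of the response between the lines named above each panel, first minus second on log2(FPKM + 1), with its 95% confidence interval, filled where the adjusted p is under 0.05. KLF5 at 0.82 and GATA6 at -0.85 stand apart from 0, and the interval of ELF3 between EBC-1 and HCC827 spans it.

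The products that go with these factors were read from 3 lists, also chosen with earlier results of these data known. Of 20 alveolar and secretory genes, 4 had a mean of at least 1 FPKM in EBC-1 nc cells, 5 in PC-9 and 9 in HCC827. In HCC827 NAPSA fell under all 15 alternatives, and the call of NKX2-1 was lost under 5 of 15. Of the list, 8 were tested there, with 5 below 0 and 3 above. Of these, 4 were called lower and 1 higher, with a median of -0.40, beside 20.7% lower and 17.2% higher over all genes tested. CEACAM6, a cell surface adhesion protein, went from 15.2, 19.9 and 21.5 FPKM to 4.10, 6.93 and 8.82 FPKM (-1.42 ± 0.23, adjusted p = 0.00354). SLC34A2, the phosphate carrier of alveolar type 2 cells, went from 2.50, 1.98 and 3.12 FPKM to 1.04, 1.34 and 1.58 FPKM (-0.60 ± 0.14, adjusted p = 0.0147, and 0.0591 without the filter). LPCAT1, which makes surfactant phospholipid, went from 293 to 347 FPKM in nc to 202 to 216 FPKM in shSYK libraries (-0.60 ± 0.07, adjusted p = 0.00115). SFTA2, a surfactant-associated protein at 112 to 128 FPKM in HCC827 nc cells and 0 reads in EBC-1 nc cells, was the fourth (-0.51 ± 0.08, adjusted p = 0.00282), and DRAM1, a lysosomal membrane protein, was the one called higher (0.40 ± 0.08, adjusted p = 0.00883).

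In EBC-1 3 alveolar genes were tested and 2 were called lower, with a median of -0.26, beside 21.6% of all genes. ABCA3, the lipid transporter of lamellar bodies, went from 9.38, 7.89 and 9.43 FPKM to 5.12, 5.31 and 4.77 FPKM (-0.70 ± 0.09, adjusted p = 0.000926). It was not called in HCC827 (0.04, interval -0.14 to 0.22, adjusted p = 0.727). The responses of EBC-1 and HCC827 differed for ABCA3 (-0.74 ± 0.13, adjusted p = 0.000652). DRAM1 changed in EBC-1 by -0.26 ± 0.07 (adjusted p = 0.0228), a call lost at equal sums, with voom, with a replicate block and without nc library 1 or 3 or shSYK library 1 or 2 (adjusted p up to 0.14). In PC-9 1 of 5 was called lower, with a median of -0.20, beside 1.41% of all genes. This was CEACAM6, at 126, 135 and 140 FPKM in nc and 79.8, 91.6 and 91.1 FPKM in shSYK cells (-0.61 ± 0.11, adjusted p = 0.045), which was lost under 7 of 15 alternatives and had adjusted p of 0.191 to 0.242 without nc library 3 or any 1 shSYK library.

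Of the 24 squamous and basal genes, 12 were tested in PC-9, and 3 were called higher and none lower, with a median of 0.19, beside 0.678% higher and 1.41% lower over all genes. KRT5 went from 23.5, 17.6 and 20.9 FPKM to 136, 140 and 139 FPKM (2.70 ± 0.13, adjusted p = 0.000263), while TP63 stayed at or under 7 reads. KRT6B, a keratin of activated basal cells, went from 8.29 to 11.02 FPKM in nc to 24.3 to 27.8 FPKM in shSYK libraries (1.38 ± 0.12, adjusted p = 0.00523, and 0.0648 without shSYK library 1), and KRT6A is so similar in sequence that reads may be split between them.

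The same list gave 4 called higher and 2 lower of 9 tested in EBC-1 (median 0.30), and 1 higher and 3 lower of 10 tested in HCC827 (median -0.12). Over all genes 23.1% were higher and 21.6% lower in EBC-1, and 17.2% and 20.7% in HCC827, so that the 2 lower calls in EBC-1 and both counts in HCC827 lay near the background. In EBC-1 FGFBP1, which binds fibroblast growth factors, rose by 1.04 ± 0.14 (adjusted p = 0.00136), SERPINB5 (maspin) rose by 0.92 ± 0.09 (adjusted p = 0.000389), and TP73, the relative of TP63, fell from 1.97, 1.85 and 1.75 FPKM to 1.25, 1.20 and 0.728 FPKM (-0.48 ± 0.13, adjusted p = 0.0196, 0.0698 without nc library 1 and 0.0666 without the filter). In HCC827 KRT6A went from 11.6, 12.5 and 12.4 FPKM to 1.85, 3.76 and 3.63 FPKM (-1.73 ± 0.18, adjusted p = 0.000652), TFAP2A, a factor of surface ectoderm, fell by 0.50 on the log2 scale (adjusted p = 0.000869), and FGFBP1 rose by 0.47 ± 0.09 (adjusted p = 0.0053).

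Of 26 other lineage factors, 18 were tested in HCC827, with 8 called lower and 2 higher (median -0.18), beside 20.7% lower and 17.2% higher over all genes. ID2, an inhibitor of helix-loop-helix factors that marks the tips of the growing lung, went from 20.1, 23.3 and 25.2 FPKM to 6.85, 5.50 and 8.10 FPKM (-1.62 ± 0.13, adjusted p = 0.000255). SPDEF, the ETS factor of goblet cells, went from 15.3 to 18.8 FPKM in nc to 4.60 to 8.13 FPKM in shSYK libraries (-1.43 ± 0.18, adjusted p = 0.00118). In EBC-1 10 were tested, with 2 higher and 1 lower (median 0.07), beside 23.1% and 21.6% of all genes. These were GATA2 (0.72 ± 0.12, adjusted p = 0.00304), SOX4 (-0.57 ± 0.12, adjusted p = 0.00692) and EHF, an ETS factor related to ELF3, at 21.2, 26.6 and 19.7 FPKM in nc and 28.3, 28.5 and 29.6 FPKM in shSYK cells (0.36 ± 0.11, adjusted p = 0.0307). The EHF call missed the threshold under 8 of 15 alternatives, with adjusted p up to 0.103. In HCC827 EHF was called lower (-0.73 ± 0.15, adjusted p = 0.00737, and called under all 15 alternatives), and so was GATA2 (-0.35 ± 0.09, adjusted p = 0.0225), a call lost under 5 of 15 alternatives. The responses of EBC-1 and HCC827 differed for both, by 1.09 ± 0.22 for EHF (adjusted p = 0.00252) and 1.07 ± 0.19 for GATA2 (adjusted p = 0.000772). In PC-9 none of 14 was called (median -0.06) with limma over 12089 genes, of which 1881 had an unadjusted p under 0.05. Among the 14, SPDEF (-0.86, interval -1.32 to -0.39, adjusted p = 0.0843), SOX4 (-0.43, -0.64 to -0.22, adjusted p = 0.0631), GATA2 (-0.39, -0.75 to -0.04, adjusted p = 0.27) and SOX9 (0.46, 0.19 to 0.74, adjusted p = 0.104) had unadjusted intervals away from 0. GATA3 was at 24.6 to 30.5 FPKM and SOX15 at 31.8 to 65.6 FPKM in nc cells, where EBC-1 nc libraries had at most 1 GATA3 read and 2.09 FPKM of SOX15.

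**Figure D4:**
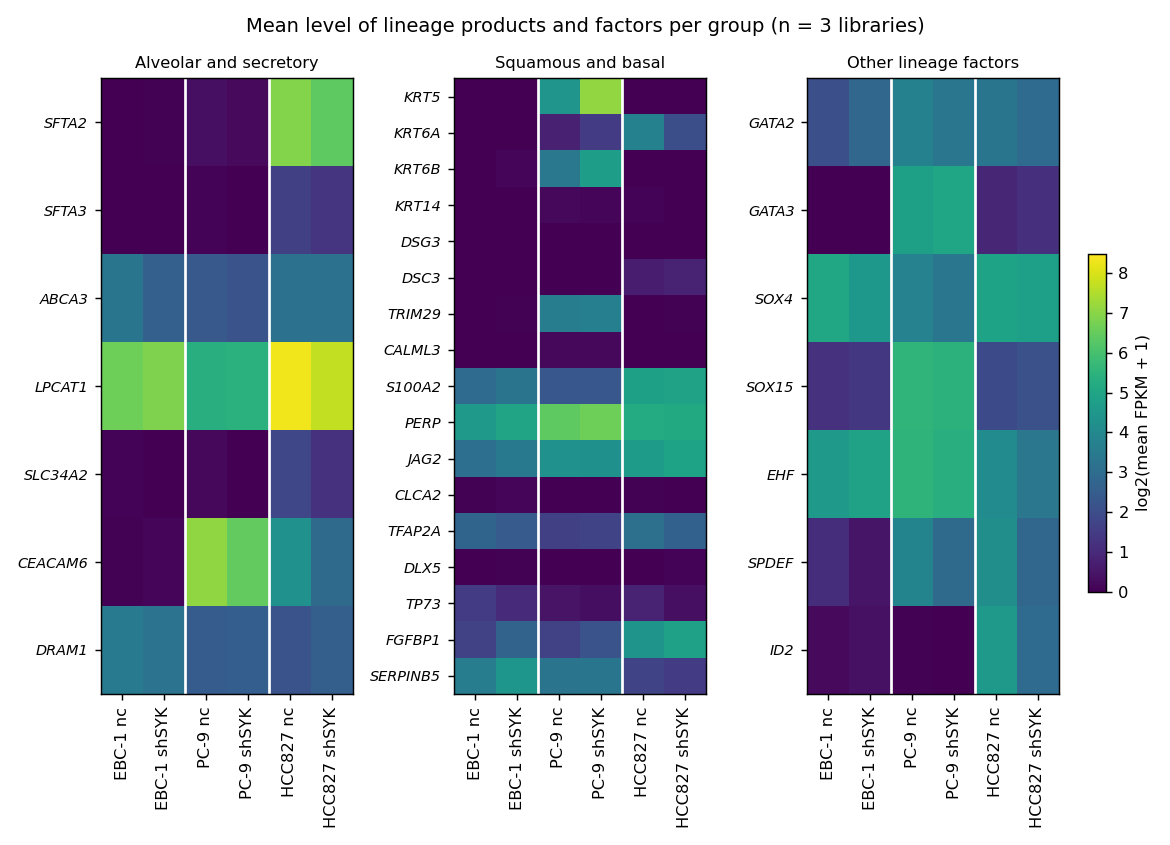
Mean FPKM of the alveolar, squamous and other lineage genes named in the text, in the 6 groups (n = 3 libraries), as colour on a scale of log2(mean FPKM + 1). SFTA2 is bright in HCC827 alone, KRT5, TRIM29 and GATA3 in PC-9, and KRT5, KRT6A, KRT14 and TRIM29 are dark in EBC-1.

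The genes next to the members were mostly near 0. NKX2-1-AS1, the antisense RNA of NKX2-1, was at 3.74, 4.12 and 3.03 FPKM in HCC827 nc and 2.03, 2.91 and 2.27 FPKM in shSYK cells, a called fall (-0.45 ± 0.13, adjusted p = 0.0278) that missed the threshold without the filter (0.094), with limma-voom and without nc library 1 or 2 or shSYK library 1 or 3. Whether the counting used strand is not given in the sources used here, so its reads and those of NKX2-1 cannot be told apart. SFTA3, which ends close to NKX2-1, was at 1.60, 2.33 and 2.15 FPKM and then 1.68, 1.24 and 1.503 FPKM in HCC827 (-0.29 ± 0.12, adjusted p = 0.104), and at or under 3 reads in the other lines. SOX2-OT, the long RNA that overlaps SOX2, did not exceed 0.086 FPKM in any library, also where SOX2 was above 5 FPKM. GATA6-AS1 was at 0.326 to 0.557 FPKM in EBC-1 nc cells and at 0 reads in HCC827 nc cells. MIPOL1, between NKX2-1 and FOXA1, and TTC6, which overlaps FOXA1 on the other strand, had at most 0.353 and 0.314 FPKM, and LINC00261, the neighbour of FOXA2, had no read in any library.

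The genes most like each member were found by Pearson's r of log2(FPKM + 1) over the 18 libraries among 12672 genes. These points fall into 3 lines, so r mostly follows the line and is given as a description. The 3 nearest genes were GRB14, CPM and CASC9 for NKX2-1 (r from 0.995 to 0.997), IFI27, HPGD and TOX3 for NAPSA (0.995 to 0.996), and CX3CL1, SNTB1 and TNFRSF25 for SOX2 (0.986 to 0.988). For the others they were SPATA20, RBM14 and SOX4 for FOXA1 (0.968 to 0.982), DLK2, FCGBP and PLEKHG5 for FOXA2 (0.99 to 0.992), ITPRIP, SH2B1 and TMCC3 for GATA6 (0.985 to 0.992), ZNF385A, RNF41 and C19orf57 for ELF3 (0.945 to 0.973), and PDLIM5, C4orf19 and CEACAM5 for KLF5 (0.951 to 0.97). With the mean of each line's nc libraries subtracted, SPATA20 was again among the 3 nearest to FOXA1 (0.943), and the other 7 genes had other neighbours. They were ALDH3B1, ARRB1 and GDF15 for ELF3 (0.981 to 0.985), PIGR, ST6GAL1 and CXCL3 for SOX2 (0.94 to 0.953), SNTB1, MYO15B and PCGF3 for NAPSA (0.917 to 0.936), ASB2, NFATC4 and SLC25A29 for FOXA2 (0.957 to 0.963), TPST2, ITPRIPL2 and MCAM for GATA6 (0.943 to 0.955), MRPL35, MGAM and NUP155 for KLF5 (0.905 to 0.939) and RAB40B, NFKBIZ and ARPC5 for NKX2-1 (0.842 to 0.846).

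On that scale of changes, the 8 members with a mean of at least 1 FPKM made 28 pairs, of which 22 had r above 0, with a median of 0.41. The same share and median over pairs of all genes were not computed, so this count cannot show a trait of the members. The highest was SOX2 with NAPSA (0.882), followed by FOXA1 with ELF3 (0.779), FOXA2 with ELF3 (0.767) and SOX2 with ELF3 (0.747). GATA6 ran against NAPSA (-0.563), SOX2 (-0.508) and NKX2-1 (-0.476). In nc cells SOX2 was at 0.0355 FPKM in PC-9, NAPSA at 0.822 in EBC-1 and 0.336 in PC-9, and NKX2-1 at 0.0741 in EBC-1. FOXA2 was at 0.343 FPKM in PC-9 and 0.985 in HCC827. Near 0 a gene can change little on this scale. Pairs with these genes therefore lean on the lines that express them, which for NAPSA is HCC827 alone. All pairs share the 18 libraries and the shSYK to nc contrast, and the values are given with no test.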

How the data were processed

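RNA was extracted with TRIzol and sequenced on an Illumina HiSeq, with 18 libraries in 6 groups of 3. The authors aligned reads to hg38 (HISAT2 and CASAVA are named in the submitters' processing notes) and deposited FPKM per gene with gene positions and lengths. The counting program, its use of strand and the annotation release are not given in the sources used here. The denominator of each library was inferred, as the common step of its FPKM values multiplied by gene length. Reads were recovered as multiples of that step. For genes up to a set number of reads, 100% of values came out whole within 0.01, and genes with more reads were not checked.

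Within a line, shSYK was compared with nc by limma 3.58.1 (R 4.3.3) with a variance trend on log2(FPKM + 1), over genes with a mean of at least 1 FPKM in its 6 libraries, with Benjamini-Hochberg adjustment over all genes. The pseudocount of 1 understates changes of low genes. Differences of the response used all 18 libraries, and nc cells were compared over 9 libraries. Results were recomputed without the filter, with a pseudocount of 0.1, a mean of at least 5, equal sums (TPM), quantile normalization, no trend, a replicate block, all 18 libraries, limma-voom on recovered reads and leaving out each library. The fit was tested on simulated data.

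Named genes were at most 3 per list and line with the largest called change, at most 3 per list with the largest difference between nc cells, neighbours with at least 3 reads per library in a group, and the 3 genes most like each member. SFTA2, DRAM1, ABCA3, EHF and GATA2 in HCC827, SPDEF, SOX4, GATA2 and SOX9 in PC-9, and the squamous-list genes named as present in EBC-1, were added after their values were seen. The members and lists were chosen with earlier results of these data known. Some genes that the rule names are not reported here. Other steps used Python 3.11.15, pandas 2.3.3, scipy 1.17.1 and matplotlib 3.10.9.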

Additional observations from a re-analysis of the deposited data

Results flagged for a closer look

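Of the 24 comparisons of a member's response between lines (8 members in 3 pairs of lines, all in 1 limma fit of 18 libraries), 9 differed at an adjusted p under 0.05, which is 4, 4 and 1 of 8 for EBC-1 against PC-9, EBC-1 against HCC827 and PC-9 against HCC827, beside 19.8%, 21.8% and 7.5% of all 12672 genes. They are given as the response (shSYK minus nc on log2(FPKM + 1)) of the first line minus that of the second. Between EBC-1 and PC-9 these were KLF5 (0.815), FOXA2 (-0.995), ELF3 (-0.623) and GATA6 (-0.425). Between EBC-1 and HCC827 they were GATA6 (-0.847), FOXA2 (-0.903), SOX2 (0.809) and NAPSA (0.526). Between PC-9 and HCC827 it was SOX2 (1.27). FOXA2, NAPSA and SOX2 passed the filter over 18 libraries only through the lines in which they were high. In nc cells FOXA2 was at 0.343 FPKM in PC-9 and 0.985 in HCC827, NAPSA at 0.822 in EBC-1 and SOX2 at 0.0355 in PC-9. With a pseudocount of 1 a line near 0 can show little change. A difference from such a line mainly repeats the change of the other line, which for SOX2 in HCC827 was -1.28. KLF5 and GATA6 at -0.847 were the 2 that passed under all 19 alternatives. SYK itself also differed in its fall between EBC-1 and HCC827 (0.49, adjusted p = 0.0278), and its part in these differences was not tested.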

How the results depend on the processing

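Numbers of genes and members called are given first as reported and then as changed, and the cause was not tested. In EBC-1, 5562 genes became 3579 at a mean of at least 5 FPKM and 3761 to 6309 with 1 library left out, and members 3 to 5. In PC-9, 253 genes became 47 without the filter, 498 at equal sums, 505 after quantile normalization, 1511 with all 18 libraries, 485 with voom, and 7 (without shSYK library 1) to 621 (without nc library 1), and 1 member became 3, 2, 3 and 2 at equal sums, quantile, all 18 libraries and voom and 0 to 3 with 1 library left out. In HCC827, 4554 genes became 3362 to 3949 with 1 library left out, and 7 members became 4 at equal sums and 5 to 7. With voom, EBC-1 had 3876 higher and 2267 lower genes, and HCC827 had 3032 higher and 2161 lower.

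Members whose response differed between EBC-1 and PC-9 (4) became 2 with a pseudocount of 0.1, 2 without the filter, 2 with the replicate block and 2 to 4 with 1 library left out. Those between EBC-1 and HCC827 (4) became 1 with that pseudocount and 2 to 4, and between PC-9 and HCC827 (1) 2 at a mean of at least 5, 3 at equal sums, 3 after quantile normalization and 1 to 4. Between nc cells, members ranged over 8 to 8, 7 to 7 and 6 to 7 with 1 library left out. At equal sums FOXA1 was gained between EBC-1 and HCC827 (limma, adjusted p = 0.000761).

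Values that changed sign, none of them called, were the following. With 1 library left out, KLF5 in EBC-1 ranged from -0.0314 to 0.166 and GATA6 in PC-9 from -0.0237 to 0.152. The response differences for EBC-1 against PC-9 were -0.27 for NKX2-1 and 0.23 for NAPSA with a pseudocount of 0.1 and 0.0753 for FOXA1 at equal sums, and with 1 library left out ran from -0.212 to 0.0824 for NAPSA and from -0.172 to 0.0601 for FOXA1. For EBC-1 against HCC827, NKX2-1 was -0.37 with that pseudocount and ELF3 ran from -0.166 to 0.0259 with 1 library left out. For PC-9 against HCC827, NKX2-1 was -0.10, FOXA2 -0.28 and NAPSA -0.15 with that pseudocount, NKX2-1 was -0.0423 at equal sums and -0.0112 after quantile normalization, and it ran from -0.0502 to 0.116 with 1 library left out. KLF5 between PC-9 and HCC827 nc cells ran from -0.0281 to 0.109.

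Replicate numbers did not pair the libraries, with same-number correlations from -0.219 to 0.325, and not every library correlated best with its own number. With the replicate block, 4326, 172 and 4111 genes and 5, 1 and 6 members were called in EBC-1, PC-9 and HCC827.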
